A study of Mus musculus with 14 samples.

Results

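Bone marrow cells that carried Sca1 and lacked Kit on their surface were profiled from young cancer-free mice, to describe what this fraction expresses without old age and without a tumour. The group held 3 arrays of the 14 in the series, each labelled as a separate biological replicate and called here mouse 1, mouse 2 and mouse 3, and it was taken by its label alone. The animals were female NCR-NU mice labelled young, with no age in weeks given, and as cancer-free controls they carried Matrigel, a basement membrane gel, in place of a tumour. Cells were sorted by flow cytometry straight into lysis buffer, and 500 pg of total RNA per sample was amplified with a whole-transcriptome system and labelled with biotin. The other groups, of which no value is compared here, were 3 young tumor-bearing, 5 old cancer-free and 3 old tumor-bearing mice. Lineage genes were taken from 32 lists of markers and pathway genes with 547 entries, of which 475 had a probe of their own, and the brightest genes were the 100 with the highest mean signal.

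Sca1, encoded by Ly6a, is a small surface protein held by a lipid anchor, and Kit is the receptor for stem cell factor. Cells with both, and without lineage markers, include the blood stem cells, whereas marrow cells with Sca1 and without Kit are a mixture in which lymphocytes, natural killer cells, plasmacytoid dendritic cells and early lymphoid cells are found. NCR-NU is a nude strain, which lacks a working Foxn1 gene and so has no normal thymus and few mature T cells, while B cells, natural killer cells and myeloid cells are made. The profile is therefore that of a bulk sort from an athymic host, and in such a sort fewer cells of a type and less RNA per cell cannot be told apart.

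All levels below are log2 signals after robust multi-array averaging by the authors, and each was read from the brightest probe of a gene, for 22180 named genes. A gene was called above background where it exceeded, on all 3 arrays, the 95th percentile of 1373 olfactory and vomeronasal receptor genes, which lay at 4.07, 4.01 and 4.11 in mice 1, 2 and 3. By that rule 10036 genes, 45.2% of all, were above background, as were 48 of the receptor genes themselves. The position of a gene is that of its probe's signal among all genes, given as a rank from the brightest or as the percentage of genes below it. Probes bind with different strength, so a position is not an order of transcript numbers, and genes not above background have no order among them. A reminder of this is the cytosolic ribosome, whose proteins are built into the same particle: Rps18 lay at 12.54 while Rplp2, at 3.93, and Rpl5, at 3.55, were not above background. The 3 arrays had like medians of 3.83, 3.81 and 3.85, and the labels give no batch. There is 1 group here, so no test was made.

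The gate could be checked at the RNA level only in part. Ptprc, the leukocyte surface protein CD45, lay at 10.80, 10.76 and 10.97 in mice 1, 2 and 3, or 10.84 ± 0.11 (SD, n = 3), rank 116. All 10 pan-leukocyte genes were above background with a median level of 9.84, from Ptprc and Cd52 (10.82), a small lipid-anchored protein of lymphocytes, down to Was (6.88, 7.09 and 7.02), a regulator of the actin skeleton. Ly6a itself was not analysed here. Kit transcript lay at 6.11, 5.25 and 6.29, or 5.88 ± 0.55, above background in each mouse and higher than 75.5% of genes, although the cells had been sorted as Kit-negative. With the background at the 99th percentile of the receptor genes, which was 5.30 in mouse 2, it was no longer above background there. Its level was lowest in mouse 2. Among relatives of Ly6a, Ly6e (11.59 ± 0.10, rank 55), Ly6d (10.42 ± 0.38), Ly6c2 (10.26 ± 0.35) and Ly6k (8.81 ± 0.48) were far above background. In that family 7 of 12 genes were above background, against 45.2% of all genes. Foxn1, the thymus transcription factor that the strain lacks, was not above background in this marrow fraction (3.69, 3.87 and 3.87).

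**Figure D1:**
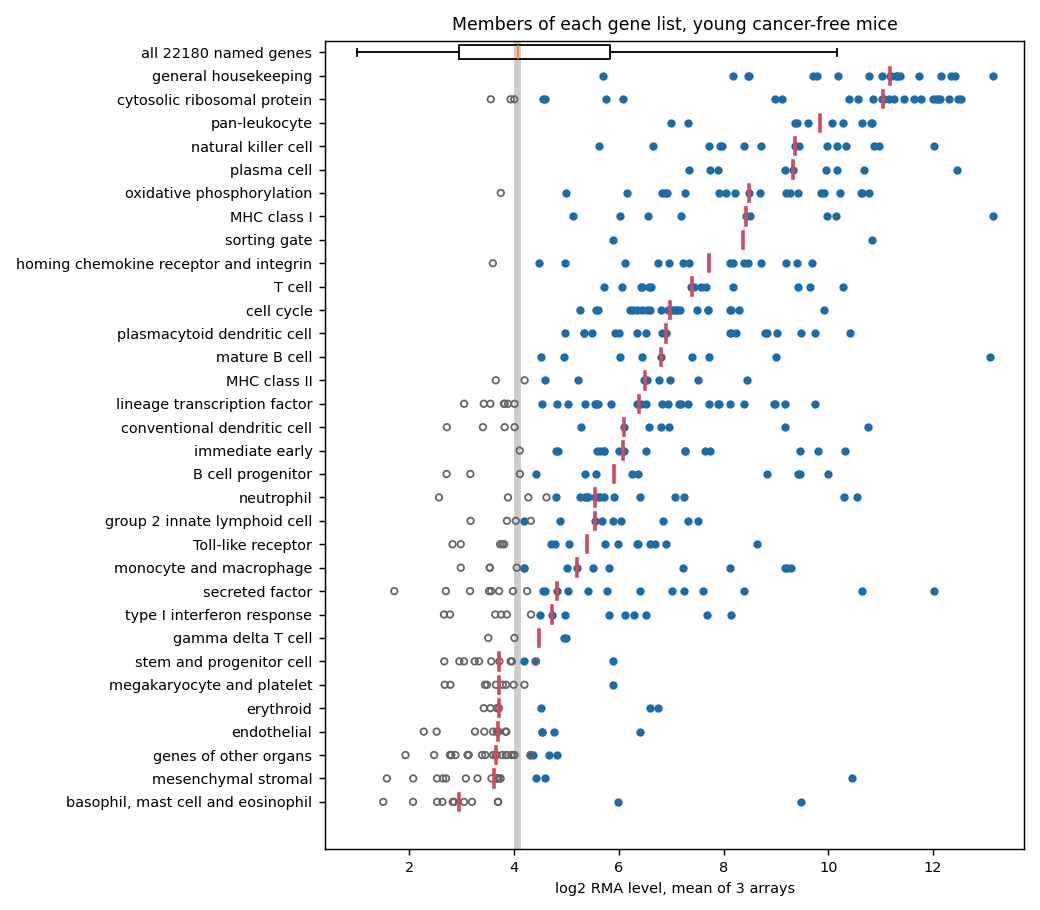
Mean log2 signal over the 3 mice of every member of each marker or pathway list, with filled points for genes above background on all 3 arrays, a red bar at the list median, a grey band at the background of the arrays, and a box of the quartiles of all 22180 genes (outlying genes not drawn). Natural killer cell, plasma cell, T cell and plasmacytoid dendritic cell lists hold filled points only, whereas most stem cell, megakaryocyte, stromal and endothelial genes are open points, not above background.

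Set side by side, the lists of natural killer, plasma, T, mature B and plasmacytoid dendritic cells were above background throughout, those of B cell progenitors (9 of 12 genes), group 2 innate lymphoid cells (9 of 13) and gamma delta T cells (2 of 4) in part, and those of stem cells, red cells, platelets, stroma and vessels mostly were not. All 15 natural killer cell genes (median level 9.37), all 9 plasma cell genes (9.33), all 14 T cell genes (7.41), all 19 plasmacytoid dendritic cell genes (6.91) and all 9 mature B cell genes (6.81) were above background, against 45.2% of all genes and a median level of 4.08 over all of them. Of markers of other organs, such as liver, muscle, brain and skin, 4 of 25 were, with a median of 3.65. Lists with medians close to that were those of stem and progenitor cells (3 of 13 genes, 3.72), megakaryocytes and platelets (1 of 10, 3.72), red cells (3 of 7, 3.71), mesenchymal stroma (3 of 16, 3.62) and endothelium (4 of 14, 3.69). Members and lists were chosen with earlier results of these data known, so their shares above background are a description and not a test.

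The brightest named genes were those of antibodies, of the ribosome and of the mitochondrial genome. Of the 100 brightest, 28 encoded cytosolic ribosomal proteins, a class that makes up 0.298% of all named genes. With the mean of a gene's probes in place of the brightest, their share of the 100 was 17%. Another 15 were immunoglobulin genes with Jchain, out of 22 such named genes, and 10 were the mitochondrially encoded genes, all 10 of those that were named. The rest held 1 histone, 1 MHC gene (B2m), 2 small RNA genes, 3 pseudogenes and 40 genes of other kinds. The values just inside and just outside the limit were 11.03 for both the pseudogene Rpl31-ps20 at rank 100 and the ribosomal protein gene Rps4x at rank 101, so the limit of 100 marks no gap. These classes cover named genes only. Among the 100 brightest probes of the whole array, 57 had no symbol, 15 had several and 28 had 1.

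**Figure D2:**
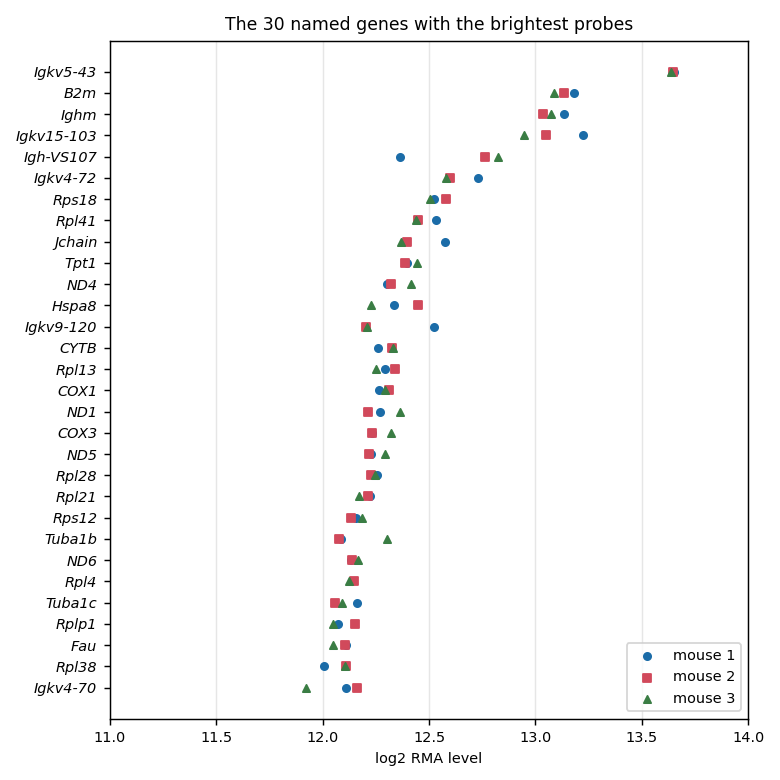
Log2 signal of the 30 brightest named genes in mice 1, 2 and 3, on an axis that starts at 11. For most genes the 3 mice lie on top of each other, and Igh-VS107 shows mouse 1 (12.37) below the other mice (12.76 and 12.82).

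Igkv5-43, a variable segment of the kappa light chain, had the highest mean, at 13.65, 13.64 and 13.64 in mice 1, 2 and 3. B2m, the invariant chain of MHC class I molecules, followed at 13.18, 13.14 and 13.09. Ighm, the constant region of the IgM heavy chain, came next at 13.13, 13.04 and 13.07. The 3 genes lay near the upper end of the scale, where the highest signal of any probe in the group was 13.73, and their SDs were 0.01, 0.05 and 0.05.

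Other antibody genes among the first 40 were Igkv15-103 (13.07 ± 0.14), Igh-VS107 (12.65 ± 0.25), Igkv4-72 (12.64 ± 0.08), Igkv9-120 (12.31 ± 0.18), Igkv4-70 (12.06 ± 0.13), Igkj1 (12.03 ± 0.22), a joining segment, and Igkv8-30 (11.81 ± 0.52). Jchain, which joins IgM and IgA units into polymers, lay at 12.58, 12.39 and 12.37, rank 10. All 21 immunoglobulin segments and constant regions with a name were above background, against 45.2% of all genes. Of these, 14 were among the 100 brightest. Variable segments share sequence, so the probe of 1 segment can bind transcripts of its relatives, and each value is that of a probe rather than of a single gene. Several of these genes varied between mice, unlike Ighm. Igkv1-133 lay at 12.10, 11.12 and 10.74 and Igkv6-23 at 11.91, 11.47 and 10.79, both highest in mouse 1. Igkv4-91 was highest in mouse 2 (11.20, 12.16 and 11.21), as was Ighg3, a constant region of IgG (11.14, 11.74 and 11.14). Igkv9-124 had its low value in mouse 1 (8.81, 9.96 and 10.23).

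Among ribosomal proteins the brightest were Rps18 (12.54 ± 0.04), Rpl41 (12.47 ± 0.05), Rpl13 (12.29 ± 0.05), Rpl28 (12.24 ± 0.01) and Rpl21 (12.20 ± 0.03). Over the 56 cytosolic ribosomal protein genes above background, of 66, the median SD between mice was 0.07, against 0.22 over all genes above background. That contrast is not one at like level. Over all genes above background the median SD was 0.12 between 10 and 11 and 0.05 above 11. Mitochondrially encoded genes spanned a narrow range, from 11.58 to 12.35. ND4, a subunit of respiratory complex I, lay at 12.30, 12.32 and 12.42, and CYTB, the cytochrome of complex III, at 12.26, 12.32 and 12.33. Nuclear genes of the respiratory chain were also bright: 20 of 21 were above background, against 45.2% of all genes. Their median level was 8.48, and Ndufa1 (10.77), Ndufa4 (10.64) and Cox4i1 (10.63) led.

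Further bright genes of general cell function were Tpt1 (12.41 ± 0.03), a growth-related protein bound to tubulin, and Hspa8 (12.34 ± 0.11), the constitutive chaperone of the heat shock 70 family. Tuba1b (12.16 ± 0.13) and Tuba1c (12.10 ± 0.05) encode alpha tubulin, and Fau (12.09 ± 0.03) encodes a ubiquitin-like protein fused to a ribosomal protein. All 19 general housekeeping genes were above background, against 45.2% of all genes. They ranged from B2m to Tbp (5.70 ± 0.29), a general transcription factor. The chemokine Ccl5, at 12.01 ± 0.11, was the brightest secreted factor, at rank 36. Slpi, an inhibitor of serine proteases, was among the 100 brightest (rank 61) with an SD of 1.20, at 10.15, 12.45 and 11.89, with mouse 1 far below the others.

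Promoters were read from RefSeq for a few of these genes to show how the sequence before the start differs between a ribosomal gene and lineage genes that lay in the same upper part of the signal. Each window runs from 250 bases before to 50 after the start in build GRCm38.p6, with every CG dinucleotide in capitals. They are Rps18 (chr17:33955616-33955915, minus strand), B2m (chr2:122147437-122147736, plus strand), Jchain (chr5:88527848-88528147, minus strand), Ncr1 (chr7:4337465-4337764, plus strand), the activating receptor NKp46 of natural killer cells, and Siglech (chr7:55767934-55768233, plus strand), a lectin of plasmacytoid dendritic cells.
Rps18: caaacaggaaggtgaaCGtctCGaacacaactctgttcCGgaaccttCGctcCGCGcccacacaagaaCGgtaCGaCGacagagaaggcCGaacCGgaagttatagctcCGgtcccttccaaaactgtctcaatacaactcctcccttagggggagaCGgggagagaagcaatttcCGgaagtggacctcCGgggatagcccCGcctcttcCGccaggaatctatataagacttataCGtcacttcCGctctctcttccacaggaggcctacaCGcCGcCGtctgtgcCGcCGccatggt
B2m: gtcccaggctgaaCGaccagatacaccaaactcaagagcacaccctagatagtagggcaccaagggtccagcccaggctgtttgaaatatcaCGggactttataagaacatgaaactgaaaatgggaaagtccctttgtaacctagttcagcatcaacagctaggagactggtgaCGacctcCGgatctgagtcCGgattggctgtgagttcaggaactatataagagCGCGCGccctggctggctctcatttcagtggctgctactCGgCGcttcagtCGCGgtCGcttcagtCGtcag
Jchain: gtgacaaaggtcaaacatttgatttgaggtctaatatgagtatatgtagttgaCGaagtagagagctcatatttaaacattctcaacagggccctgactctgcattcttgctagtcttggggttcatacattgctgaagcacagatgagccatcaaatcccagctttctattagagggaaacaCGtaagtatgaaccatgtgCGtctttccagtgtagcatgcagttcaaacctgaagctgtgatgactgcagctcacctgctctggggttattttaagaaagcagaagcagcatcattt
Ncr1: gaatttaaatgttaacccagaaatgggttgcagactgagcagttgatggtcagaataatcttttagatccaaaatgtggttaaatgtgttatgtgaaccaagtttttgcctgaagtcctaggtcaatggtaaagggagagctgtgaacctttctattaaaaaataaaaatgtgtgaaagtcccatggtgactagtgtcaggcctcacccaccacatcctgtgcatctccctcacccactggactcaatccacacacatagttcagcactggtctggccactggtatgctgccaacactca
Siglech: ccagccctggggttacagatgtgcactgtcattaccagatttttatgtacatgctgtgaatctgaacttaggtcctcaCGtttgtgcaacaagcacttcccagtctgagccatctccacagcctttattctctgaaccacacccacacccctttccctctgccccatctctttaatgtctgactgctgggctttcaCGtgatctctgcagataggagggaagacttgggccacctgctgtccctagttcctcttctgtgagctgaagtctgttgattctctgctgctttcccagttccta

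The window of Rps18 held 24 CG dinucleotides and that of B2m 14, while Jchain held 3, Siglech 2 and Ncr1 0. Over 27025 promoters of the same length the median was 7 CG, at 0.39 of the number that base composition alone would give. The ribosomal protein genes among the 100 brightest had a median of 23 CG, 0.97 of that number, from the 23 of 28 genes with a window. Windows of the natural killer list, 12 of 15 genes, had a median of 3.5 CG (0.20), those of the plasma cell list, 8 of 9, had 10.5 (0.44), and those of the cell cycle list, 21 of 23, had 24 (0.93). The letters GGGCGG, a GC box, read on both strands, were in 13 of the 23 ribosomal windows (56.5%), against 35.9% of all promoters. They were in 2 of the 12 natural killer windows (16.7%), 5 of the 8 plasma cell windows (62.5%) and 16 of the 21 cell cycle windows (76.2%). Lineage lists thus lay on both sides of the share of all promoters. The letters TATAAA, also on both strands, were in 1 of 23 ribosomal windows (4.35%), against 14.2% of all promoters. They were in 0 of 12 natural killer, 2 of 8 plasma cell (25.0%) and 0 of 21 cell cycle windows. For the 100 brightest genes as a whole and the T cell and plasmacytoid dendritic cell lists the comparison is void, since under 80% of their genes had a window.

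Natural killer cell genes were the brightest of the lineage lists beside those of plasma cells, with a median position above 98.1% of all genes. Natural killer cells kill without prior priming, through perforin and granzymes, and are read by lectin-like and immunoglobulin-like receptors. Of 15 genes, 10 were among the 1000 brightest. Ccl5 (12.01), Il2rb, the shared beta chain of the receptors for IL-2 and IL-15 (10.70, 11.09 and 11.09 in mice 1, 2 and 3), and Nkg7, a protein of cytotoxic granules (10.79, 10.86 and 10.94), led the list. Cytotoxic T cells also express these 3 genes.

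Receptors and transcription factors of the natural killer list were also far above background. T cell genes were above background in the same bulk sorts, and which cells gave these signals was not tested. Ncr1 lay at 9.10, 9.28 and 9.73, or 9.37 ± 0.32, rank 417. Klrd1, the CD94 chain of lectin receptors, was at 9.83, 10.06 and 10.05, and Klrk1, the receptor NKG2D, was at 9.06, 9.35 and 9.89. Eomes (8.39 ± 0.14) and Tbx21 (7.73 ± 0.35), the T-box factors that direct this lineage, were at 8.23, 8.48 and 8.47, and at 7.32, 7.97 and 7.89. The lowest members, Klre1 (6.66 ± 0.19) and Klrb1c (5.62 ± 0.43), the antigen NK1.1, still exceeded background in every mouse. In 11 of the 15 genes the lowest value was that of mouse 1, where 27.0% of all genes above background had theirs. The list mean was 8.88, 9.15 and 9.20, so the mice differed by 0.32 at most.

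In the wider families, chosen after values were seen, 12 of 23 killer cell lectin-like receptor genes and 4 of 9 granzyme genes were above background, shares near the 45.2% of all genes. Klrc1, the NKG2A chain that pairs with Klrd1, was the brightest lectin receptor (10.21 ± 0.34), and Klrb1f lay at 8.60 ± 0.30. Gzma (10.34 ± 0.08), Gzmk (8.43 ± 0.17), Gzmb (7.96 ± 0.32) and Gzmm (7.07 ± 0.28) were the granzymes above background. Prf1, the pore-forming perforin, lay at 8.59, 9.05 and 8.52. Of 34 interleukin receptor chains 21 were above background, among them Il18r1 (8.62 ± 0.14) and Il18rap (7.79 ± 0.17), the receptor chains for IL-18, and Il12rb2 (7.55 ± 0.38), a chain of the IL-12 receptor.

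**Figure D3:**
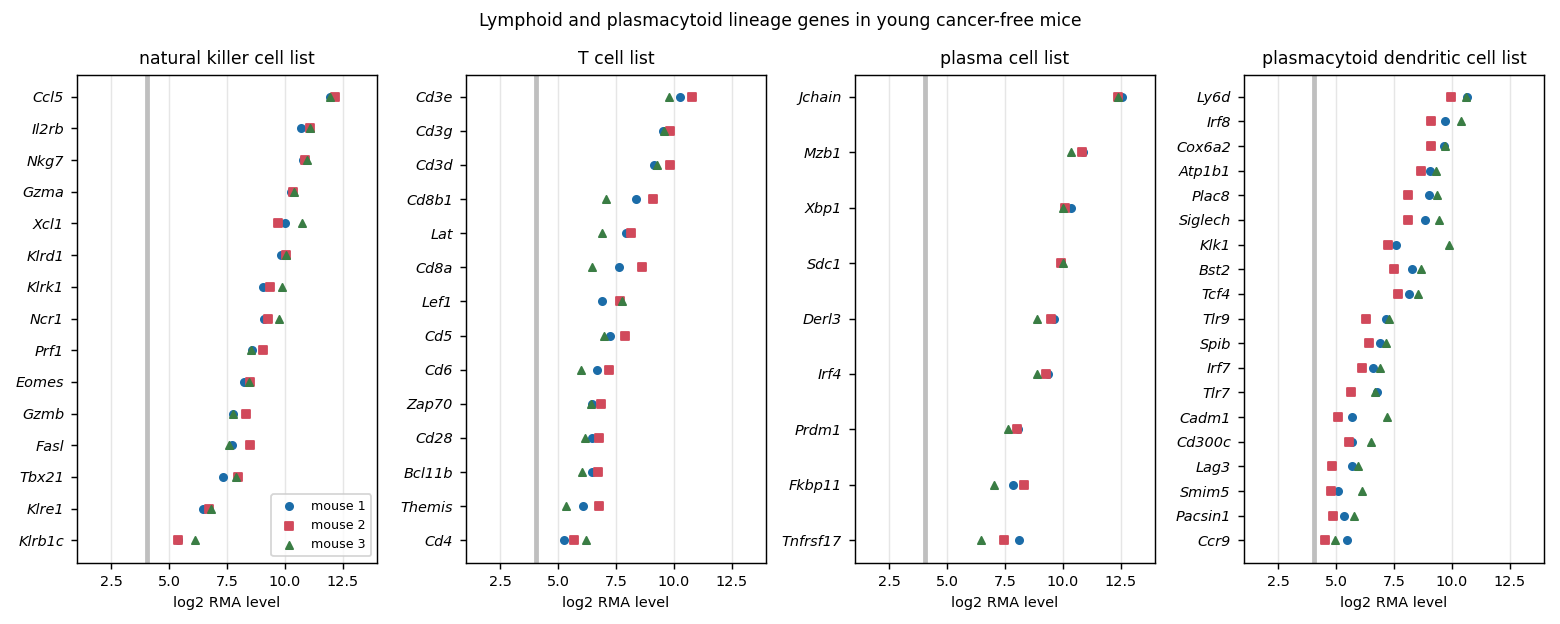
Log2 signal in mice 1, 2 and 3 of each gene of the natural killer, T cell, plasma cell and plasmacytoid dendritic cell lists, with the background of the arrays as a grey band. Every gene lies above the band in every mouse, mouse 2 is highest for Cd8a (8.61) and lowest for Siglech (8.09), and mouse 3 is lowest for Tnfrsf17 (6.44).

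T cell genes were above background in all 3 athymic mice. The chains of the CD3 complex, which carries the signal of the T cell receptor, were the brightest: Cd3e lay at 10.26, 10.80 and 9.78, Cd3g at 9.52, 9.83 and 9.58, and Cd3d at 9.16, 9.81 and 9.29. Cd8b1 and Cd8a, the chains of the CD8 coreceptor, had larger differences between mice. Cd8a was at 7.65, 8.61 and 6.45 (7.57 ± 1.08) and Cd8b1 at 8.37, 9.10 and 7.06 (8.18 ± 1.03), highest in mouse 2 and lowest in mouse 3. Cd4 was the lowest of the 14 genes at 5.24, 5.67 and 6.22, in the opposite order of mice 2 and 3. Lat, an adaptor of the receptor signal, lay at 7.67 ± 0.68, and Bcl11b (6.42 ± 0.34) and Themis (6.06 ± 0.71), which act in T cell development, were lower.

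The T cell list as a whole had means of 7.46, 7.99 and 7.14. The highest value was that of mouse 2 in 12 of 14 genes, against 35.1% of all genes above background, and 10 of 14 were highest in mouse 2 and lowest in mouse 3, against 22.2%. Of 5 variable segments of the T cell receptor alpha chain with a name, 4 were above background, against 45.2% of all genes. Trav9d-3 (10.26 ± 0.38) was the brightest. Foxp3, the factor of regulatory T cells, lay at 6.33, 6.13 and 6.59. The constant regions Trac, Trbc1 and Trbc2 and the kinase Lck were not analysed here. Of the gamma delta T cell list, 2 of 4 genes, Sox13 (4.88, 4.95 and 5.16) and Blk (5.71, 4.55 and 4.60), were above background, Blk being also a B cell gene, and Il17a was not (3.51).

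Of the B lineage lists, those of plasma cells and mature B cells were above background throughout and that of progenitors in part. The plasma cell list had the highest median level. Plasma cells are the antibody-secreting end stage of B cells and persist in marrow. Beside Jchain, Mzb1, a chaperone of IgM assembly, lay at 10.89, 10.81 and 10.36, and Xbp1, the factor of the secretory programme, at 10.16 ± 0.19. Sdc1, the surface marker CD138, was at 9.95 ± 0.04. Derl3 (9.33 ± 0.38) and Fkbp11 (7.74 ± 0.66) act in the endoplasmic reticulum, and Irf4 (9.17 ± 0.24) and Prdm1 (7.89 ± 0.23) are transcription factors of the plasma cell state. Tnfrsf17, the survival receptor BCMA, had an SD of 0.84, at 8.10, 7.46 and 6.44. In 8 of 9 genes mouse 3 was lowest, against 43.1% of all genes above background, with list means of 9.64, 9.53 and 9.07.

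Mature B cell genes included Cd37 (9.15, 8.97 and 8.88), a tetraspanin, Ms4a1, the surface protein CD20 (7.88, 7.60 and 7.68), and Bank1 (7.39 ± 0.34), an adaptor of B cell receptor signals. Cd22, an inhibitory lectin, lay at 6.91, 6.26 and 6.14. Fcer2a, the low-affinity IgE receptor of mature B cells, was at 6.64, 5.44 and 5.98, and the complement receptor Cr2, at 5.08, 4.16 and 4.31, was near background. All 9 genes were highest in mouse 1, against 34.7% of all genes above background, and the list means were 7.72, 7.08 and 7.17.

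In the progenitor list 9 of 12 genes were above background, against 45.2% of all genes. Cd79b (10.13, 10.19 and 9.67) and Cd79a (9.80, 9.43 and 9.05), the signal chains of the B cell receptor, and Blnk (8.82 ± 0.19), their adaptor, are shared with mature B cells. Il7r, the receptor for interleukin 7 on early lymphoid cells and on T cells, lay at 9.58, 9.83 and 8.97. Dntt, which adds bases at V(D)J joints, was at 7.09, 5.73 and 5.93, highest in mouse 1, and the factors Ebf1 (6.30, 5.24 and 5.16) and Pax5 (5.90, 5.02 and 5.16) were highest in mouse 1 too. Genes of the pre-B cell stage were at the low end. Vpreb2, of the surrogate light chain, was above background in every mouse (4.23, 4.43 and 4.60), Igll1 (4.11) on 2 arrays, and Vpreb1 (2.71) and Rag2 (3.17) on none.

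Plasmacytoid dendritic cell genes were above background in every mouse and differed between mice in a common order. These cells sense nucleic acids through endosomal Toll-like receptors and secrete type I interferon. Ly6d lay at 10.67, 9.98 and 10.60, Irf8, a factor of dendritic cell fate, at 9.71, 9.10 and 10.40, and Cox6a2, a respiratory chain subunit typical of these cells and of muscle, at 9.65, 9.11 and 9.69. Siglech, a lectin that marks them in the mouse, was at 8.86, 8.09 and 9.43, or 8.80 ± 0.67, rank 670. Tcf4, the factor that specifies the lineage, was at 8.15, 7.67 and 8.54. At the low end were Smim5 (5.33 ± 0.69), Pacsin1 (5.33 ± 0.46) and the chemokine receptor Ccr9 (4.98 ± 0.48).

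All 19 genes were lowest in mouse 2, against 29.9% of all genes above background. In 16 of 19 the highest value was that of mouse 3, against 30.1% of all genes above background, and 16.1% of those had both the low value in mouse 2 and the high one in mouse 3. The list means were 7.44, 6.82 and 7.91, so mice 2 and 3 differed by 1.10. Klk1, a kallikrein protease, had the largest SD of the list at 7.57, 7.22 and 9.89, and Klk1b27, a close relative whose probe may share sequence with it, was at 6.34, 6.21 and 8.59. Kit, which is not on the list, also had its low value in mouse 2 and its high value in mouse 3. The share of each cell type in the sorts was not measured, and its part in these orders was not tested.

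**Figure D4:**
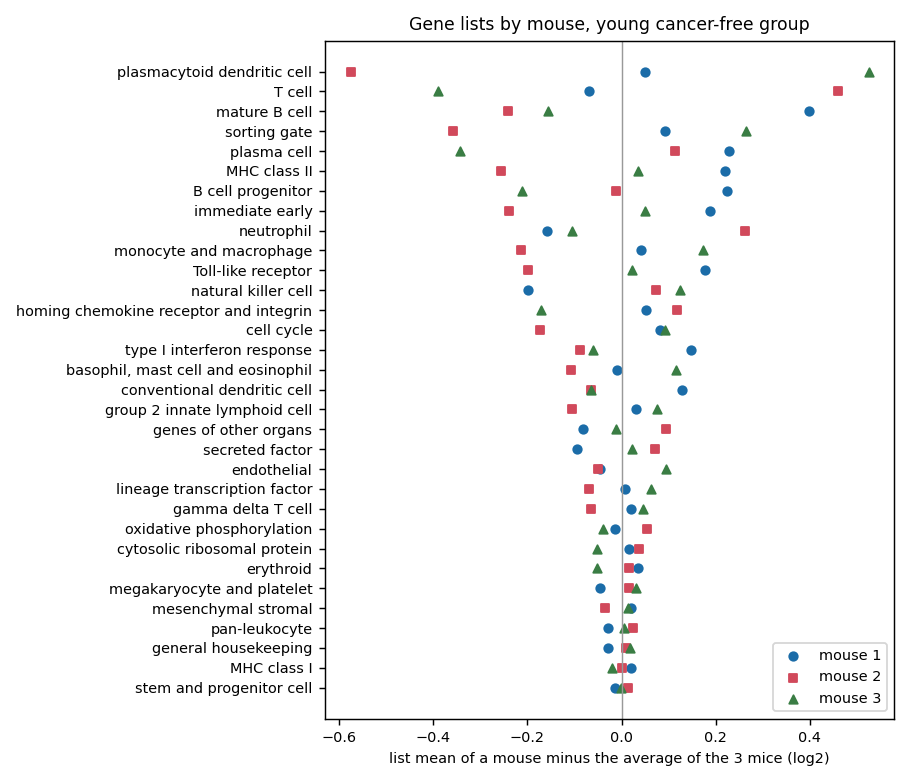
Mean log2 signal of each list in mice 1, 2 and 3, drawn as the difference from the average of the 3 mice. The plasmacytoid dendritic cell list lies low in mouse 2 and high in mouse 3 (6.82 and 7.91), the T cell list does the reverse (7.99 and 7.14), the mature B cell list is high in mouse 1 (7.72), and the pan-leukocyte and housekeeping lists stay close to zero.

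Conventional dendritic cell genes were above background in 7 of 11 cases, against 45.2% of all genes. Several of the 7 are genes that other cells share. Cd24a, a small sialoprotein also of B cells and neutrophils, lay at 10.75 ± 0.26, and Irf4 was counted above with the plasma cell list. Ccr7, the receptor that guides cells to lymph nodes, was at 7.40, 7.26 and 6.20, Sirpa at 6.83, 6.44 and 7.13, and Itgax, the integrin CD11c, at 6.23, 5.74 and 6.33. Cd209a, a lectin (6.42, 6.67 and 6.62), and Flt3, a growth factor receptor that progenitors share (5.34, 4.75 and 5.71), were also above background in every mouse. At the low end of the list, Zbtb46 (3.82), Xcr1 (2.72) and Clec10a (3.40) were above background in no mouse, and Batf3 (4.01) in 2. Of 10 MHC class II genes 8 were above background, led by H2-Ab1 (8.44 ± 0.40), H2-DMa (7.67, 7.41 and 7.43) and H2-Aa (6.93, 6.45 and 7.55). Those genes are expressed by B cells and both kinds of dendritic cell. MHC class I and its peptide loading genes were above background throughout (9 of 9), from B2m and H2-K1 (9.98 ± 0.02) to Nlrc5 (5.13 ± 0.19), their transactivator.

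Myeloid genes formed a mixed picture, with a few bright members and many low ones. S100a8 and S100a9, the calcium-binding proteins that fill neutrophils, lay at 9.97, 10.86 and 10.81 and at 9.99, 10.58 and 10.33. Granule genes were lower: Ngp was at 6.90, 7.29 and 7.54, Camp at 6.38, 7.35 and 7.46, and Mpo, the myeloperoxidase of early granulocytes, at 7.02, 6.14 and 6.07. Csf3r (4.27), the receptor for the granulocyte growth factor, exceeded background on 2 arrays, and Cebpe (3.88) and Fcnb (2.57) on none. Above background were 15 of 19 neutrophil genes, against 45.2% of all genes. Of those 15, 10 were lowest in mouse 1 and 10 highest in mouse 2, against 27.0% and 35.1% of all genes above background.

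For monocytes and macrophages 11 of 15 genes were above background, against 45.2% of all genes. Ms4a6c (9.09, 9.29 and 9.46), Lyz2, the lysozyme of myeloid cells (9.23, 8.92 and 9.48), Cd68, a lysosomal glycoprotein that plasmacytoid dendritic cells also express (9.40, 8.66 and 9.45), and Ccr2, the receptor by which monocytes leave marrow (7.99, 8.03 and 8.34), were the brightest. Csf1r, the growth factor receptor of the lineage, lay at 5.69, 4.95 and 5.86. The macrophage gene Adgre1, the antigen F4/80, exceeded background in mice 1 and 3 (4.40, 3.17 and 4.58), and Cd14 (2.98), C1qc (3.53) and Ms4a7 (3.54) in none. Of basophil, mast cell and eosinophil genes 2 of 12 were above background. Prg2, the major basic protein of eosinophil granules, stood far apart from the rest at 10.28, 8.95 and 9.22, and Il5ra was at 6.47, 5.22 and 6.27. Epx (2.63), the eosinophil peroxidase, Siglecf (3.69), Ccr3 (2.07) and the mast cell protease gene Cpa3 (2.53) were not.

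Of the group 2 innate lymphoid cell list, 9 of 13 genes were above background, against 45.2% of all genes. The cytokine genes Il5 and Il13 were not among them. Il2ra (7.79, 7.42 and 7.34), Gata3 (7.31 ± 0.30) and Icos (6.98, 6.66 and 6.90) led, all of which T cells express as well. Il5 (3.17) and Arg1 (3.86) were not above background, and Il13 (4.03) was in mouse 3 alone. Of the 13 stem and progenitor genes, Kit, Procr (4.39 ± 0.20) and Hlf (4.19 ± 0.13) were above background. Cd34 (3.96), Hoxa9 (3.93), Mecom (3.33), Mycn (2.95) and Meis1 (2.67) were not.

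Red cell and platelet genes were low, as were those of non-blood cells of the marrow. Tfrc, the transferrin receptor of dividing cells (6.74 ± 0.32), and Car2 (7.10, 6.99 and 5.70) were above background, whereas the red cell factors Klf1 (3.55) and Gata1 (3.42) and the membrane protein gene Slc4a1 (3.71) were not. The adult globin genes Hba-a1 and Hbb-bt were not analysed here. Itgb3 (5.89 ± 0.19) was the platelet gene above background, and Pf4 (2.78) and Itga2b (3.85) were not. Thy1, listed for stroma but also the T cell antigen CD90, lay at 10.38, 10.48 and 10.49, while Pdgfra (2.64), Lepr (1.57) and Adipoq (3.08) were not above background and Cxcl12 (4.42 ± 0.10) was by a small margin. Pecam1, which leukocytes share with vessels, lay at 6.40 ± 0.14, and Cdh5, the cadherin of vessel walls, at 4.52 ± 0.21, while Tek (2.52) and Emcn (2.28) were not above background.

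Lineage transcription factors were above background in 25 of 32 cases, against 45.2% of all genes. The brightest were Irf8 (9.74), Irf4 (9.17), Id2 (8.97 ± 0.11), a partner of innate lymphoid and natural killer development, Ikzf1 (8.95 ± 0.10), the pan-lymphoid factor Ikaros, Eomes (8.39) and Tcf4 (8.12). Spi1, the PU.1 factor of myeloid cells, lay at 5.70, 5.40 and 5.68, and Cebpa, of granulocytes, at 4.82 ± 0.24. Gata1, Gata2 (3.05) and Klf1 were not above background. Id2 and Ikzf1 lay close together in the 3 mice. Irf8 and Tcf4 had the order of the plasmacytoid dendritic cell list, of which both are members.

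All 23 cell cycle genes were above background, against 45.2% of all genes, with a median level of 6.97. Pcna, the sliding clamp of DNA replication, lay at 10.01, 9.86 and 9.89, rank 268. Mki67, present in cycling cells, was at 8.56, 7.87 and 8.44, Top2a, the topoisomerase of dividing cells, at 8.25, 7.91 and 8.23, and Ccna2, cyclin A2, at 8.09, 7.35 and 7.65. The mitotic kinases and checkpoint genes Aurka (5.61 ± 0.45), Bub1b (5.56 ± 0.25) and Bub1 (5.26 ± 0.18) were at the low end. In 14 of 23 genes mouse 2 was lowest, against 29.9% of all genes above background.

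Immediate early genes respond within minutes to a stimulus, and 17 of 18 were above background, against 45.2% of all genes. Zfp36, which destabilises cytokine messages, lay at 10.54, 10.28 and 10.12, Btg2 at 9.79 ± 0.14 and Jund at 9.45 ± 0.12. The members Fosb (7.21, 4.63 and 6.18), Fos (6.70, 4.65 and 5.78), Jun (8.41, 6.78 and 8.03) and Dusp1 (7.92, 6.68 and 7.19) had the order of high in mouse 1 and low in mouse 2. Ier3 went another way, at 5.06, 6.53 and 6.68, as did Egr2 (5.04, 5.39 and 6.34) and Egr3 (5.10, 5.93 and 6.12). The list mean was 6.89, 6.46 and 6.75, and mouse 2 was lowest in 10 of the 17 genes above background, against 29.9% of all such genes. Of the remaining genes above background, 4 were lowest in mouse 1 and 3 in mouse 3, so the list was mixed.

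Interferon and Toll-like receptor genes were above background in part, as were 45.2% of all genes. Of 15 type I interferon response genes 9 were, led by Bst2, an antiviral membrane protein also of plasmacytoid dendritic cells (8.28, 7.51 and 8.65), Xaf1 (7.98, 6.93 and 8.13) and Irf7 (6.60, 6.10 and 6.88). Those 3 genes had the order of the plasmacytoid dendritic cell list, on which Bst2 and Irf7 also stand. Stat2 (6.67, 6.64 and 5.54) and Rtp4 (6.48, 5.85 and 5.09) were lowest in mouse 3 instead, and Mx1 (2.66) and Rsad2 (2.77) were not above background. Unc93b1, the chaperone that takes Toll-like receptors to endosomes, lay at 8.92, 8.43 and 8.58. Tlr9, the receptor for unmethylated DNA, was at 7.16, 6.29 and 7.27, and Tlr7, for single-stranded RNA, at 6.76, 5.62 and 6.68, both lowest in mouse 2. Tlr1, at 7.22, 6.61 and 5.28, and Ly96, at 7.50, 6.48 and 5.81, were lowest in mouse 3. Tlr3 (2.82), Tlr5 (3.74) and Cd14 were not above background.

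Receptors that hold leukocytes in marrow or guide them were bright, with a median level of 7.73. Of these, 15 of 16 were above background, against 45.2% of all genes. Cxcr4, the receptor for the marrow chemokine Cxcl12, lay at 9.86, 9.69 and 9.51, rank 324. The integrin chains Itgb2 (9.41 ± 0.14) and Itgal (9.19 ± 0.22), which form LFA-1, and Itgb1 (8.71 ± 0.23) and Itga4 (8.39 ± 0.11), which form VLA-4, varied little. Cxcr3, a receptor of effector lymphocytes and plasmacytoid dendritic cells, was at 8.37, 8.40 and 8.61. Ccr6 (4.48 ± 0.51) was near background and Ccr1 (3.59) exceeded it in mouse 2 alone.

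Among secreted factors 13 of 21 were above background, against 45.2% of all genes. Grn, the growth factor granulin, lay at 10.52, 10.55 and 10.85, or 10.64 ± 0.18, rank 147, well above the list's median of 4.82. Tgfb1 was at 8.25, 8.57 and 8.37. The chemokines Ccl4 (7.13, 7.40 and 8.26) and Ccl3 (6.76, 7.72 and 7.27) and Vegfb, a relative of the vascular growth factor (7.02 ± 0.16), came next. Ifng, the interferon of natural killer and T cells, was at 5.42 ± 0.51. Il1b (3.16), Il6 (1.71), Hgf (2.70) and the neutrophil chemokine Cxcl2 (3.56) were not above background.

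The 3 mice were alike over most genes, and the spread between them depended on the level. Across all genes, which are not independent replicates, the correlation was 0.982 between mice 1 and 2, 0.975 between mice 1 and 3 and 0.974 between mice 2 and 3, after a normalisation the arrays share. Mouse 3 stood somewhat further off: 425 genes above background (4.24%) differed by more than 1 between mice 1 and 3 and 471 (4.69%) between mice 2 and 3, compared with 179 (1.78%) between mice 1 and 2. The median SD was 0.22 over the genes above background. It was 0.20 for genes below 5, 0.27 between 5 and 6, 0.20 between 7 and 8, 0.12 between 10 and 11 and 0.05 above 11. Of 10179 named genes with a mean above background, 60 had an SD over 1, 1039 over 0.5 and 1520 under 0.1.

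**Figure D5:**
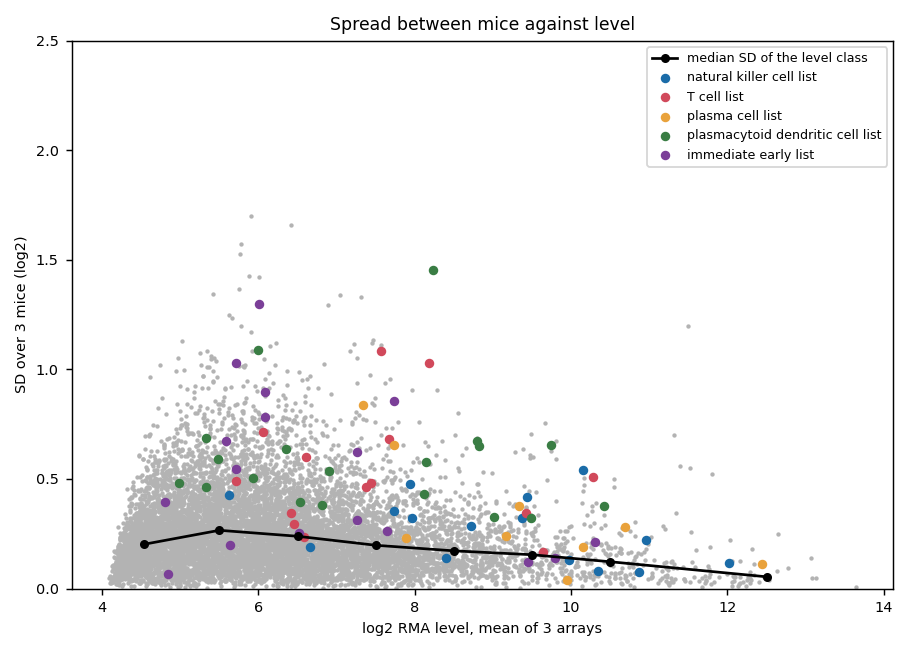
SD over the 3 mice against mean log2 signal for genes above background, with list members in colour and a black line for the median SD of each class of level. The line rises from 0.20 below 5 to 0.27 between 5 and 6, then falls to 0.05 above 11. Klk1 (SD 1.45) and Cd8a (1.08) lie far above the line.

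The genes that differed most between the mice belonged to several kinds. Sit1, an adaptor that restrains T cell receptor signals, lay at 7.59, 5.93 and 4.19, and Hepacam2 at 7.24, 5.72 and 5.79, both highest in mouse 1. Mouse 1 was lowest for Slpi, for the neuropeptide gene Npy (6.34, 8.49 and 7.81) and for Ier3. Parm1 (4.85, 8.16 and 6.23) and Elovl7 (4.63, 6.26 and 4.68), an enzyme of long-chain fatty acids, were highest in mouse 2. Cd36, a receptor for lipids, was below background in mouse 2 alone (5.34, 3.62 and 5.41), and Mnd1, of meiotic recombination, was too (4.77, 2.20 and 6.16).

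Mouse 3 stood above the others for Klk1 and Klk1b27, for Csf2rb2 (5.27, 5.11 and 7.65), a receptor chain for IL-3, for Gpr141 (4.58, 5.19 and 7.56) and for Ifi202b (4.34 ± 1.43), an interferon-inducible gene above background in mouse 3 alone. The chemokine Cxcl9, induced by interferon gamma, was at 6.18, 6.98 and 8.78. Below the others in mouse 3 were Sit1, B3glct (6.26, 5.62 and 3.88) and Hinfp (6.04, 5.95 and 4.28). Tnfrsf23 had the largest SD of the genes with a mean above background, at 2.12, 4.19 and 6.36, and was below background in mouse 1. With 3 animals, each such gene is a description of these arrays.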

How the data were processed

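Bone marrow cells sorted as Sca1-positive and Kit-negative were profiled on 14 one-colour arrays, 1 per animal sample, of which the 3 labelled young cancer-free were used. Per the submitters' processing notes, the authors ran RMA (robust multi-array averaging) in oligo 1.32.0 with R 3.2.0, and they deposited log2 values. For the set of arrays normalised together, the array build and any filter, nothing is given in the sources used here. Deposited values ran from 0.29 to 13.78. Intensities before normalisation were not used, and precision is limited by there being only 3 arrays.

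Of 41345 probes, 23521 had 1 gene symbol, 1814 had several and 16010 had none. An Entrez identifier matched 23328 of the first kind to current symbols. For 1082 genes with several probes the brightest over the 14 arrays was used. Among the 100 brightest probes of the whole array 28 had 1 symbol, 15 several and 57 none, so many bright probes are unnamed here. Means, SDs, ranks and shares were computed in Python 3.11.15 with pandas 2.3.3. The background rule was also run on simulated data, in which silent genes were drawn at the levels of the receptor genes themselves. The share of silent genes called there follows from that setting, so the run cannot show how well receptor probes stand for other probes. No test between groups was made.

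Members and lists were chosen with earlier results of these data known. Genes were named from the 30 brightest, with predicted genes, pseudogenes, small RNA genes and olfactory and vomeronasal receptors counted only. Further sets were up to 6 highest and 3 lowest members of each list, and Ly6a, Kit, Ptprc, Grn and Foxn1. The last sets were the 15 genes of largest SD and, for each mouse, up to 5 genes furthest above and below both others. Not every gene of these sets is given in the text. Genes and families named outside this rule were chosen after their values were seen, among them Ncr1, Siglech, Prf1, Pax5, Ebf1, Spi1, Cebpa, Foxp3, Fos, Ifng, the Ly6, lectin receptor, granzyme, interleukin receptor and T cell receptor families and the dimmer antibody segments. Promoters are the first window listed per gene in RefSeq, GRCm38.p6. List members with no probe of their own were not analysed here.

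Alternatives were another rule for several probes, 2 further scalings, other background levels and rules, other sizes of the brightest set, and each mouse left out in turn.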

Additional observations from a re-analysis of the deposited data

How the results depend on the processing

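No paired analysis was possible because 1 group of 3 mice is described and no test was made. The limits lie in the background level, the choice of probes and the number of mice. With the background at the 99th percentile of the receptor genes in place of the 95th, 5882 genes were above it. The lists then kept 1 gene of the sorting gate, 6 of monocytes and macrophages, 7 of neutrophils, 1 of basophils, mast cells and eosinophils, 0 of gamma delta T cells, 5 of group 2 innate lymphoid cells, 0 of stem and progenitor cells, 1 of stroma, 1 of endothelium, 5 of the interferon response, 9 immediate early genes, 7 of Toll-like receptors, 7 secreted factors and 0 of other organs. Kit was under that level in at least 1 mouse, whereas the natural killer, plasma cell, T cell and plasmacytoid dendritic cell lists held 15, 9, 12 and 14 genes above it. With each array's median as background the stem and progenitor list had 5. The megakaryocyte list had 2 without mouse 1, and 2 where at least 2 arrays sufficed (1 to 2 over the mice left out). The share of ribosomal protein genes among the brightest was 17% with the mean of a gene's probes, 29% with quantile normalization of the 3 arrays, 28% to 29% with a mouse left out, 37% with all probes of 1 symbol kept, 32% in the brightest 50 and 6.6% in the brightest 500. Immunoglobulin genes made up 20%, 20% and 4% in the last 3 settings, and mitochondrially encoded genes 18% and 2% in the brightest 50 and 500. With the mean of the probes 71 of the 100 brightest genes were kept, and 97 to 99 with a mouse left out. The median SD was 0.151 to 0.189 with a mouse left out, where it rests on 2 arrays. Genes above background numbered 10277 to 10547 in those settings. No result changed direction, since none has one.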

Other observations

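Some of the brightest signals belonged to genes of tissues outside the marrow. Vmn1r233, a vomeronasal receptor gene, lay at 12.11, 12.16 and 12.21 in mice 1, 2 and 3, at rank 24, although its family served as the background. Odf1, a gene of the sperm tail, lay at 11.20, 11.19 and 11.26, and Cnbd2, also known from the testis, at 12.05, 12.08 and 12.06. Each had nearly the same value in all 3 mice. What those probes bind was not tested.

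Among small RNA genes, 79 of 483 miRNA genes and 39 of 79 small nucleolar RNA genes were above background, against 45.2% of all genes. The array carries probes for their genes, and the amplified material was total RNA, so the values are not levels of mature miRNAs. Tyrobp, the adaptor DAP12 through which receptors of natural killer, myeloid and plasmacytoid dendritic cells signal, lay at 11.17, 10.96 and 11.49, lowest in mouse 2 and highest in mouse 3. These genes were chosen after their values were seen.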
